A study of Mus musculus with 18 samples.

Results

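The genes described here are markers of T cells and natural killer (NK) cells, read in whole lung from mice that fell ill after irradiation of the chest and from untreated mice. The list holds 10 genes, and a probe set was taken for a gene when the platform annotation names that gene alone. By that rule 9 of the 10 genes had a probe set, through 14 probe sets of the 45101 on the array, and all 9 passed the filter on dim signals. They stand among 12405 genes tested, of 18194 genes that a probe set names alone. The tenth gene is Lck, the kinase that phosphorylates the T cell receptor complex. No probe set carries its name in the annotation used, so no value is given for it.

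RNA of the right lung was hybridised to 18 arrays, which make up 6 groups of 3. The irradiated mice belonged to 3 inbred strains: A/J, C57BL/6J, which the labels spell C57BL6/J, and the strain C3H/HeJ. They were exposed at 8 weeks of age to 18 Gy over the thorax, while lead cut the beam to 3% for the rest of the body. All were killed when moribund, at 30 to 32 weeks of age in A/J, 28 to 30 weeks in C57BL/6J and 20 to 22 weeks in C3H/HeJ, which is 22 to 24, 20 to 22 and 12 to 14 weeks after exposure. The untreated mice of all 3 strains were 15 to 26 weeks old, so that treatment cannot be told apart from older age in A/J and C57BL/6J. Where effects are compared between strains, strain likewise cannot be told apart from time after exposure. The labels do not say that the 3 untreated samples of a strain came from separate mice, and where they did not, the p-values measure only the spread between samples.

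T cells recognise antigen through a receptor that signals by way of the invariant CD3 chains, and CD8 is the co-receptor of the cytotoxic T cells. NK cells lack that receptor and read a balance of activating and inhibitory receptors. Both kinds of cell kill targets with the same granule proteins: perforin opens the target's membrane and granzymes, which are serine proteases, enter and start cell death. The lung holds many NK cells and resident memory T cells, and lymphocytes are among the most radiosensitive cells of the body. In bulk lung RNA, fewer cells of a type and less RNA per cell cannot be told apart.

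Some arrays stood apart from their groups. The squamous keratin Krt4 was at 10.91 in irradiated A/J array 3 and at 11.52 and 11.75 in untreated C57BL/6J arrays 1 and 3, against 3.06 to 6.13 in the other 15 arrays, on the log2 scale defined below. At 34 probe sets that separate untreated C3H/HeJ from untreated A/J, irradiated C3H/HeJ array 3 had a median position of 0.48 on a scale where 0 is its own strain and 1 is A/J. The other irradiated C3H/HeJ arrays lay at 0.03 and 0.04. The actin probe sets at the 5' and 3' ends gave a signal ratio, which falls as RNA breaks, of 0.497 ± 0.0738 in irradiated A/J arrays and 0.735 ± 0.00605 in untreated A/J arrays (SD, n = 3 each), and group means of the other strains ran from 0.709 to 0.745. Irradiated A/J array 1 had the lowest actin ratio, 0.413, the brightest trimmed mean signal, 176, and a ratio of 5' to 3' Gapdh of 0.294, against 0.876 to 1.30 in the other 17 arrays. Without that array 4 members were called in A/J: Gzma at -2.02 (adjusted p = 0.00659), Prf1 at -1.41 (adjusted p = 0.00119), Cd3d at -0.95 (adjusted p = 0.00709) and Cd8a in place of Nkg7. Irradiated A/J arrays 2 and 3 had actin ratios of 0.551 and 0.528, while all arrays outside that group had 0.677 or more. Leaving out array 1 therefore did not remove the difference in this ratio. The part of RNA quality in the A/J results was not tested. Cdkn1a, the p53 target known to answer irradiation, rose in all 3 strains, by 1.77 in A/J, 2.57 in C57BL/6J and by 2.29 in C3H/HeJ.

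The granule protease Gzma was the member with the largest difference, and it was lower in irradiated lungs of all 3 strains. Prf1, which encodes perforin, fell in A/J by 1 of its 2 probe sets. A/J lungs also had lower Cd3d and Nkg7 after irradiation, while no member was called in C57BL/6J and Gzma alone was called in C3H/HeJ. Averaged over the 3 strains, Cd3e rose. Gzmb, the other granzyme on the list, was called in no strain. A gene is called here when its adjusted p is under 0.05 in limma's moderated test over all genes. Values are log2(signal + 7) after quantile normalization, differences are on that same scale, and a difference of 1 is a 2-fold change there.

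In A/J, 0 of the 9 members rose and 4 fell, where 15.1% of all genes tested rose and 8.91% fell. The irradiated arrays lay above all untreated ones for 0 members and below all of them for 5, where 25.2% and 15.2% of all genes did so. The members' median difference was -0.52, against 0.09 over all genes. In C57BL/6J, 0 members were called in either direction by limma, where 3.01% of genes rose and 2.36% fell, and 4 members had an unadjusted p under 0.05. Irradiated arrays lay above the untreated ones without overlap for 1 member and below them for 2, where 11.7% and 12.5% of genes did so. The members' median there was 0.17 against -0.01 over all genes, and it was -0.12 without the 3 arrays high in Krt4. In C3H/HeJ, 0 members rose and 1 fell, where 12.9% of genes rose and 10.6% fell, and the members' median was 0.04 against 0.01 over all genes. Separation without overlap was seen upward for 1 member and downward for 1, where 21.5% and 18.9% of genes showed it. For the mean of the 3 strain effects, 1 member rose and 2 fell, where 20.9% of genes rose and 15.3% fell.

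**Figure D1:**
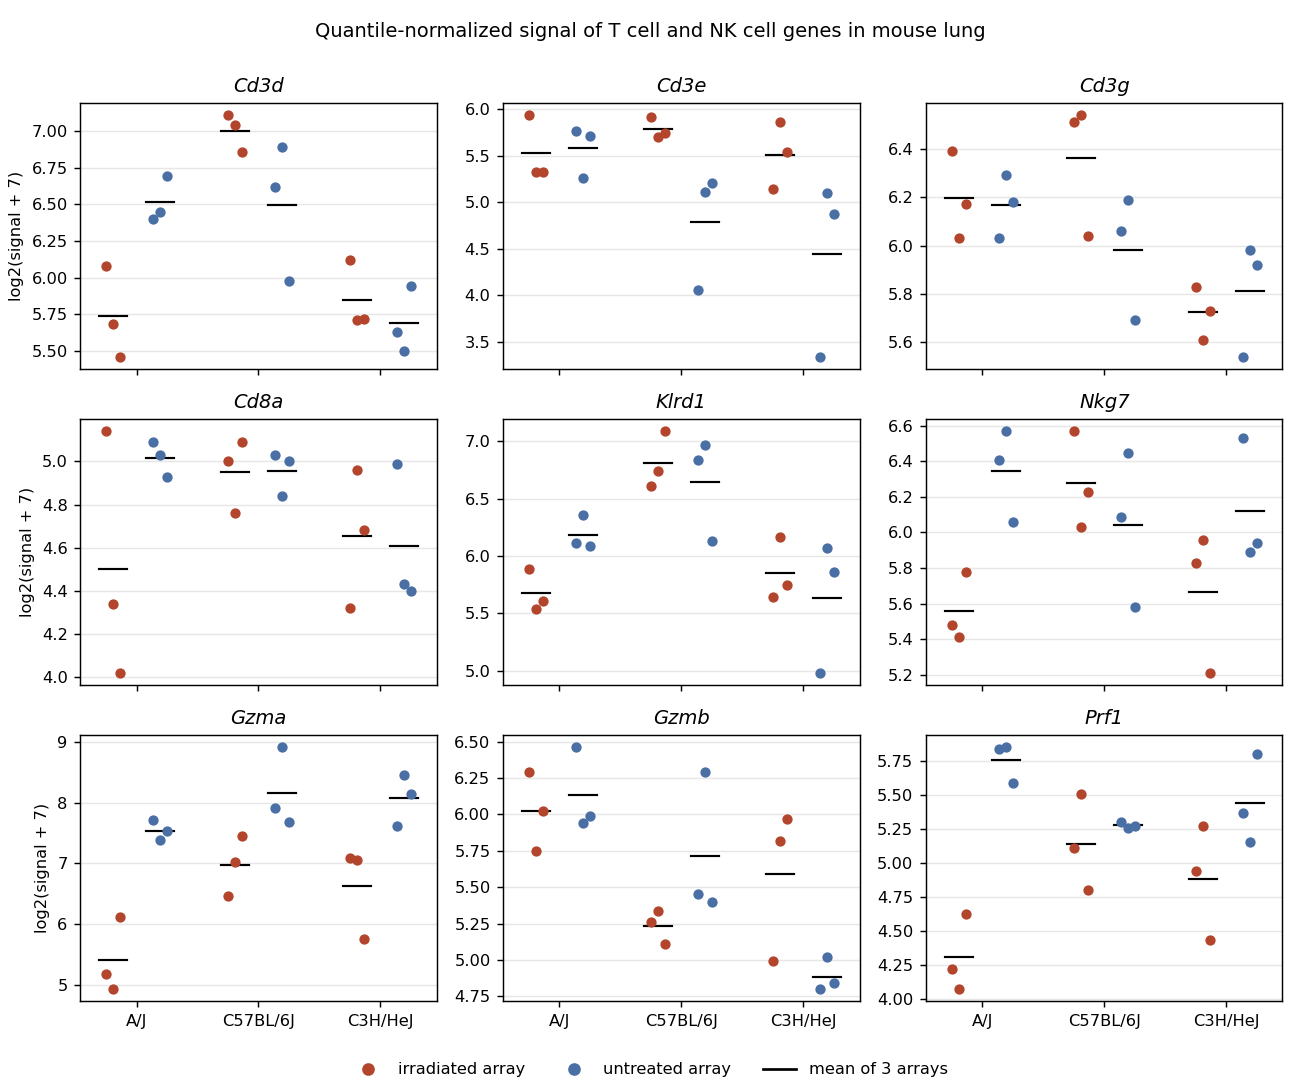
Each panel shows 1 of the 9 tested genes, with the normalized log2(signal + 7) of every array on the vertical axis and the 3 strains along the horizontal axis. Red points are irradiated arrays, blue points are untreated arrays and bars are means of 3 arrays. In the Gzma panel the red points lie below the blue ones in all 3 strains, from 4.93 to 7.45 against 7.38 to 8.91. The vertical scales differ between panels and do not start at 0.

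The granule genes are taken first. Gzma, Gzmb and Prf1 are held under common regulators in cytotoxic lymphocytes, among them Runx, Ets and T-box factors, with AP-1 downstream of receptor signals. The 250 bases before the start of each gene are given because Gzma and Prf1 fell together in A/J while Gzmb did not. They come from RefSeq on build GRCm38.p6 and read 5′ to 3′ toward the gene, which begins after the last base. Gzma lies on the minus strand at chr13:113100982-113101231, Prf1 on the plus strand at chr10:61297586-61297835 and Gzmb on the minus strand at chr14:56262335-56262584. Capitals mark matches, on either strand, to TGTGGT for Runx, AGGAAG for Ets, GGTGTGA for T-box factors and TGANTCA for AP-1.
Gzma: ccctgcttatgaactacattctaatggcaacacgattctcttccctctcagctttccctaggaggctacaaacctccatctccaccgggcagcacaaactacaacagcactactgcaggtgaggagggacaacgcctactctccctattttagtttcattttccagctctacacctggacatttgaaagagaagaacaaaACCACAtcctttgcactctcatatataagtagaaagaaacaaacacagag
Prf1: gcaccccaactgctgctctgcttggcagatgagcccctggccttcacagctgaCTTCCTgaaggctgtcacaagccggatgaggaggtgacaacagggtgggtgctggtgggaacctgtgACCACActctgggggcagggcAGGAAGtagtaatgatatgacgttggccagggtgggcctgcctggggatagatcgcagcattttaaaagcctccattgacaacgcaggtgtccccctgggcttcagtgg
Gzmb: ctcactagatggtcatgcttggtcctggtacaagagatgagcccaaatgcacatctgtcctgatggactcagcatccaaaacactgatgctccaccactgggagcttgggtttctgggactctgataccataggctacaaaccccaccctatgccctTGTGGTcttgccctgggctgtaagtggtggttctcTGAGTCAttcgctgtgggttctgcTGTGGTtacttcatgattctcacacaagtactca
The Gzma window held 1 match, to the Runx letters at 50 to 45 bases before the start. The Prf1 window held a Runx match between 2 Ets matches, and the Gzmb window held 2 Runx matches with an AP-1 match between them. Of 32851 promoters, 14.0% held the Runx letters, 29.5% the Ets letters, 3.3% the T-box letters and 6.7% the AP-1 letters within the same 250 bases. A match is a description of these letters and not of binding. No T-box letters occurred in any of the 3 windows.

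Gzma encodes granzyme A, a trypsin-like granule protease of NK cells and cytotoxic T cells. In A/J its log2 signal was 5.18, 4.93 and 6.12 in irradiated lungs, against 7.71, 7.38 and 7.53 in untreated lungs. In C57BL/6J it was 6.47, 7.02 and 7.45 in irradiated lungs, against 7.91, 8.91 and 7.68 in untreated lungs. In C3H/HeJ it was 7.09, 7.06 and 5.75 in irradiated lungs, against 7.61, 8.45 and 8.15 in untreated lungs. Every irradiated array of a strain was below every untreated array of that strain. On the linear scale the deposited signal averaged 45.8 ± 14.5 in irradiated A/J lungs and 177.9 ± 26.4 in untreated A/J lungs (SD, n = 3 each).

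Gzma fell by 2.13 ± 0.40 (SE) on the log2 scale in A/J, which is 4.38-fold lower, with an adjusted p of 0.00143. It was called under all 18 alternative settings run for that effect, where the difference ranged from -2.49 to -1.63. In C3H/HeJ the difference was -1.44 ± 0.40 (adjusted p = 0.0179). This call was lost, at -0.99 (adjusted p = 0.0943), without irradiated C3H/HeJ array 3, the array that lay between strains, at -1.25 (adjusted p = 0.0689) without untreated C3H/HeJ array 2, and at -0.81 (adjusted p = 0.0627) without scaling between arrays. In C57BL/6J the difference of -1.19 ± 0.40 was not called (adjusted p = 0.103), and it was -1.93 (adjusted p = 0.166) without the 3 arrays high in Krt4, which leaves 1 untreated C57BL/6J array. Averaged over the strains, Gzma fell by 1.59 ± 0.23, or 3.00-fold, with an adjusted p of 8.34e-05, and kept its call under all 30 alternatives for that mean, at -1.95 to -1.25.

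The size of the Gzma effect was not shown to differ between strains. The A/J effect minus the C57BL/6J effect was -0.94, with a 95% confidence interval from -2.16 to 0.27 (adjusted p = 0.368). For A/J minus C3H/HeJ it was -0.69, from -1.91 to 0.52, and for C57BL/6J minus C3H/HeJ it was 0.25, from -0.97 to 1.47. These intervals leave room for a difference in either direction.

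Prf1 encodes perforin, the pore-forming protein of cytotoxic granules. By its brighter probe set, A/J values were 4.22, 4.07 and 4.62 in irradiated lungs, against 5.84, 5.85 and 5.59 in untreated lungs. The 2 groups were separated by a gap wider than the range of either. In C57BL/6J the values were 5.11, 5.51 and 4.80 in irradiated lungs, against 5.30, 5.26 and 5.27 in untreated lungs. In C3H/HeJ they were 4.94, 5.27 and 4.43 in irradiated lungs, against 5.37, 5.15 and 5.80 in untreated lungs. The groups overlapped in both of these strains.

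Prf1 fell by 1.46 ± 0.22 in A/J, or 2.74-fold, with an adjusted p of 0.000245, and was called under all 18 alternatives, at -1.82 to -0.83. The differences in C57BL/6J, -0.14 (adjusted p = 0.793), and C3H/HeJ, -0.56 (adjusted p = 0.0797), were not called. The A/J effect was below that of C57BL/6J by 1.32 ± 0.31 (adjusted p = 0.0226), a call that was lost in 8 of 24 alternatives. Among these were unscaled arrays, at -1.24 (adjusted p = 0.244), and leaving out the 3 arrays high in Krt4, at -1.49 (adjusted p = 0.108), or those and irradiated C3H/HeJ array 3. The others left out untreated A/J array 1 or 2, irradiated A/J array 2, irradiated C57BL/6J array 2 or untreated C57BL/6J array 1, with values of -1.33 to -1.13. Leaving out 1 array at a time, the C3H/HeJ effect ranged from -0.75 to -0.33. It was called only without irradiated C3H/HeJ array 2, at -0.75 (adjusted p = 0.0341). The value of -0.33 came without irradiated C3H/HeJ array 3, the array that lay between strains.

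The other Prf1 probe set did not follow. In A/J it read 4.73, 4.94 and 5.02 in irradiated lungs, against 5.14, 4.67 and 4.86 in untreated lungs, and it exceeded the overall median signal of 4.98 in only 4 of 18 arrays. Its difference was 0.01 ± 0.25 in A/J (adjusted p = 0.988 over 25726 probe sets), 0.06 in C57BL/6J and 0.15 in C3H/HeJ. The fall of Prf1 in A/J therefore rests on 1 probe set of 2, the brighter one, which exceeded that median in 12 arrays. So does its difference from C57BL/6J. By the dimmer probe set the A/J effect minus the C57BL/6J effect was -0.06 (adjusted p = 0.95).

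Gzmb encodes granzyme B, which cleaves caspases in the target cell and which mouse mast cells can make as well. C3H/HeJ values were 4.99, 5.82 and 5.97 in irradiated lungs, against 4.80, 5.02 and 4.84 in untreated lungs. In C57BL/6J they were 5.26, 5.34 and 5.11 in irradiated lungs, against 5.45, 6.29 and 5.40 in untreated lungs. In A/J they were 6.29, 5.75 and 6.02 in irradiated lungs, against 6.46, 5.94 and 5.99 in untreated lungs. Irradiated arrays thus lay below untreated ones without overlap in C57BL/6J, and overlapped with them in the other strains. No effect was called: the differences were -0.12 in A/J (adjusted p = 0.779), -0.48 in C57BL/6J (adjusted p = 0.318) and 0.71 in C3H/HeJ (adjusted p = 0.056). The C57BL/6J effect minus the C3H/HeJ effect was -1.19, from -1.96 to -0.42, and did not pass the adjustment (adjusted p = 0.115). Without irradiated C3H/HeJ array 1, the lowest of its group, the C3H/HeJ effect was 1.01 (adjusted p = 0.00939) and this difference -1.49 (adjusted p = 0.0436), both called. Unscaled arrays gave 1.10 for the C3H/HeJ effect (adjusted p = 0.0114), which was called in 5 of 18 alternatives. Leaving out 1 array at a time, that effect ranged from 0.52 to 1.01. The value of 0.52 came without irradiated C3H/HeJ array 3, the highest of its group and the array that lay between strains. It was not called.

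Mast cell markers moved in the same lungs. Of 9 tested mast cell genes, 7 rose and 0 fell in A/J, 1 rose and 0 fell in C57BL/6J, while 8 rose and 0 fell in C3H/HeJ. Of all genes, 15.1% rose and 8.91% fell in A/J, 3.01% and 2.36% in C57BL/6J, and 12.9% and 10.6% in C3H/HeJ. The summed linear signal of the mast cell genes was 1700 to 2690 in irradiated and 550 to 681 in untreated A/J lungs, 460 to 526 and 325 to 400 in C57BL/6J, and 894 to 1630 and 241 to 281 in C3H/HeJ. Cpa3, the mast cell carboxypeptidase, rose by 3.84 in A/J, 2.09 in C57BL/6J and by 3.84 in C3H/HeJ (adjusted p = 4.08e-05, 0.0188 and 4.42e-05). The part of mast cells in the Gzmb values was not tested.

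Nkg7, a granule membrane protein of cytotoxic lymphocytes that is needed for granule release, read 5.48, 5.41 and 5.78 in irradiated A/J lungs, against 6.41, 6.57 and 6.06 in untreated A/J lungs. The groups did not overlap, and the fall of 0.79 ± 0.25, or 1.74-fold, was called (adjusted p = 0.0284). Unscaled arrays gave -0.47 (adjusted p = 0.279), and the call was also lost without A/J untreated array 1 or 2 or irradiated array 1 or 2, at -0.76 to -0.68. In C57BL/6J the difference was 0.23 and in C3H/HeJ -0.46, with overlapping groups in both and adjusted p of 0.672 and 0.201. The A/J effect minus the C57BL/6J effect was -1.03, from -1.77 to -0.28, with an adjusted p of 0.1.

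Klrd1 encodes CD94, the partner of NKG2 receptors on NK cells and some CD8 T cells. It read 5.89, 5.54 and 5.61 in irradiated A/J lungs, against 6.11, 6.36 and 6.09 in untreated A/J lungs, so that the groups did not overlap. The difference of -0.51 ± 0.26 was not called (adjusted p = 0.174), but it was with array weights, at -0.60 (adjusted p = 0.041), and in a fit of the A/J groups alone, at -0.51 (adjusted p = 0.0463). In C57BL/6J the difference was 0.17 and in C3H/HeJ 0.22, with overlap in both strains.

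The CD3 chains are the signalling part of the T cell receptor, and Cd3d, Cd3e and Cd3g each had 1 probe set. Cd3d in A/J was 6.08, 5.68 and 5.46 in irradiated lungs, against 6.40, 6.45 and 6.69 in untreated lungs. In C57BL/6J it was 7.11, 7.04 and 6.86 in irradiated lungs, against 6.62, 6.89 and 5.98 in untreated lungs. In C3H/HeJ it was 6.12, 5.71 and 5.72 in irradiated lungs, against 5.63, 5.50 and 5.94 in untreated lungs. Irradiated values were all below untreated ones in A/J, mostly above them in C57BL/6J, and mixed with them in C3H/HeJ.

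Cd3d fell by 0.78 ± 0.21 in A/J, or 1.71-fold (adjusted p = 0.014). That call was lost without scaling between arrays, at -0.39 (adjusted p = 0.365), and without untreated A/J array 3 or irradiated A/J array 3, at -0.69 and -0.63. In C57BL/6J the difference was 0.51 (adjusted p = 0.188) and in C3H/HeJ 0.17 (adjusted p = 0.618). The A/J effect was below that of C57BL/6J by 1.28 ± 0.30 (adjusted p = 0.0212). Without the 3 arrays high in Krt4 this difference of effects was -0.75 (adjusted p = 0.235), with Cd3d effects of -0.63 in A/J and 0.12 in C57BL/6J.

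Cd3e showed another pattern. In C57BL/6J it was 5.92, 5.70 and 5.75 in irradiated lungs, against 4.06, 5.11 and 5.21 in untreated lungs. In C3H/HeJ it was 5.14, 5.86 and 5.54 in irradiated lungs, against 3.34, 5.10 and 4.88 in untreated lungs. In A/J it was 5.94, 5.33 and 5.33 in irradiated lungs, against 5.77, 5.26 and 5.71 in untreated lungs. All irradiated arrays lay above the untreated ones in C57BL/6J and C3H/HeJ, with 1 low untreated array in each, and the groups overlapped in A/J.

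The Cd3e differences were 1.00 ± 0.38 in C57BL/6J (adjusted p = 0.153), 1.07 ± 0.38 in C3H/HeJ (adjusted p = 0.055) and -0.05 in A/J (adjusted p = 0.942), none of them called. The C3H/HeJ difference was called in 6 of 18 alternatives. Among them were unscaled arrays, at 1.34 (adjusted p = 0.00162), and leaving out untreated C3H/HeJ array 2 or 3, at 1.40 and 1.29. With single arrays left out, the C3H/HeJ difference was smallest without untreated C3H/HeJ array 1, the low one, at 0.52. The C57BL/6J difference was likewise smallest without untreated C57BL/6J array 1, at 0.63. Neither of these was called. The mean of the 3 strain effects was 0.67 ± 0.22 and was called (adjusted p = 0.0264). The call was lost in 7 of 30 alternatives, with values of 0.47 to 0.62. Among these were array weights (adjusted p = 0.0598), leaving out the 3 arrays high in Krt4 (adjusted p = 0.0983), and leaving out untreated C57BL/6J array 1, the low one, at 0.55 (adjusted p = 0.0554). The other 4 left out untreated A/J array 2, irradiated A/J array 1, irradiated C3H/HeJ array 2, or the 3 arrays together with irradiated C3H/HeJ array 3.

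Of the Cd3 chains, Cd3g had the smallest difference in each strain. It ranged from 6.03 to 6.39 in irradiated and from 6.03 to 6.29 in untreated A/J lungs, from 6.04 to 6.54 and from 5.69 to 6.19 in C57BL/6J, and from 5.61 to 5.83 and from 5.54 to 5.98 in C3H/HeJ. The differences were 0.03, 0.39 and -0.09 in these strains, and the groups overlapped in each. The A/J interval ran from -0.32 to 0.38, so that a fall of Cd3g as large as the fitted fall of Cd3d lay outside it.

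Cd8a, the alpha chain of the CD8 co-receptor, was dim. Of its 5 probe sets 3 were kept, and the tested one exceeded the overall median in 8 of 18 arrays. It read 5.14, 4.34 and 4.02 in irradiated A/J lungs, against 5.09, 5.03 and 4.93 in untreated A/J lungs, with irradiated array 1 above all untreated ones. Without that array the A/J difference was called, at -0.84 (adjusted p = 0.0072), as it was with array weights, at -0.68 (adjusted p = 0.00639). Without irradiated A/J array 3, the lowest of its group, the A/J difference was -0.28 and was not called. The differences were -0.52 in A/J (adjusted p = 0.124), -0.01 in C57BL/6J and 0.04 in C3H/HeJ. In A/J the other kept probe sets gave -0.55 (adjusted p = 0.278) and -0.38 (adjusted p = 0.197). The beta chain Cd8b1, from the wider T cell list, differed by -0.80 in A/J (adjusted p = 0.0808), again without a call.

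**Figure D2:**
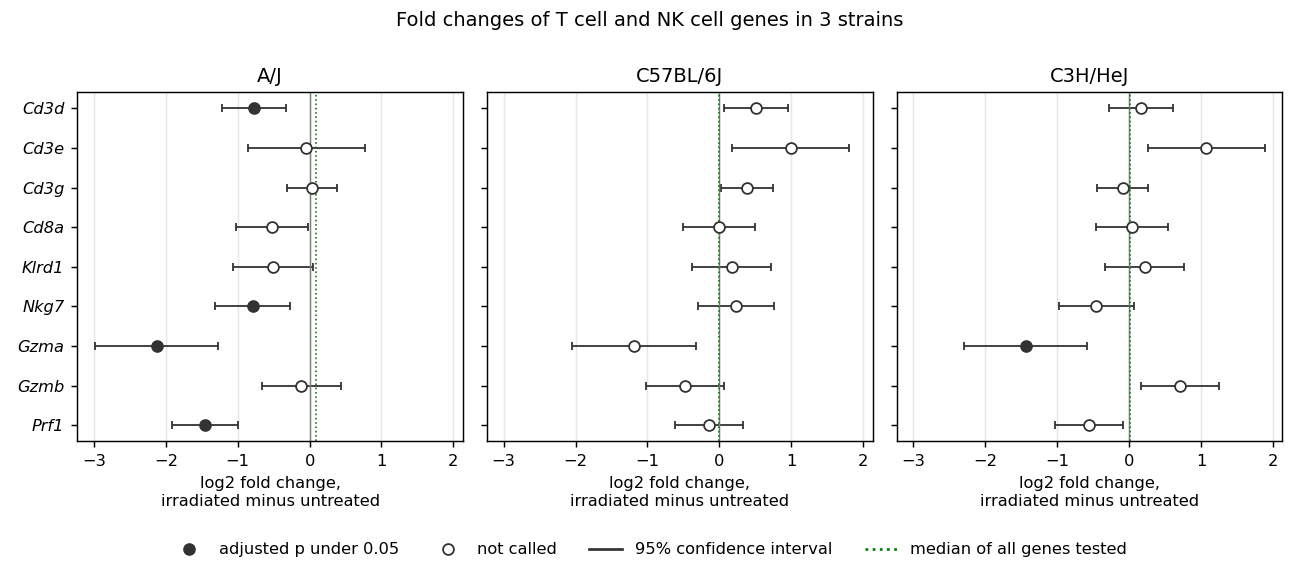
Points are log2 differences, irradiated minus untreated, on the horizontal axis for the 9 tested genes, with 1 panel per strain and bars for 95% confidence intervals. Filled points have an adjusted p under 0.05, and the dotted line is the median over all genes tested. The 4 filled points in A/J are Cd3d, Nkg7, Gzma and Prf1, the only filled point in C3H/HeJ is Gzma, and C57BL/6J has none.

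The 3 strain effects were compared through their differences in the same fit, where strain cannot be told apart from time after exposure. For A/J minus C57BL/6J, 2 members were called, Cd3d and Prf1, both lower, where 5.38% of genes were called. The Prf1 call was by 1 of its 2 probe sets. For A/J minus C3H/HeJ, 0 members were called by limma, where 1.06% of genes were, and 3 had an unadjusted p under 0.05, Prf1, Cd3d and Gzmb. For C57BL/6J minus C3H/HeJ, 0 members were called, where 1.61% of genes were, and 1 had an unadjusted p under 0.05, which was Gzmb. Array weights, which count deviating arrays less, added calls for Cd3d (-1.10, adjusted p = 0.0308) and Prf1 (-1.06, adjusted p = 0.0491) for A/J minus C3H/HeJ.

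Untreated lungs of the strains also differed. Untreated A/J lungs exceeded untreated C3H/HeJ lungs in Gzmb, 6.13 ± 0.28 against 4.88 ± 0.12 (SD, n = 3 each, adjusted p = 0.00904), and in Cd3d, 6.51 ± 0.16 against 5.69 ± 0.23 (adjusted p = 0.0355). These were the 2 members called, where 4.49% of genes were. For Cd8a the tested probe set gave 0.41 (adjusted p = 0.393). Its other kept probe sets gave 0.84 (adjusted p = 0.0282 over 25726 probe sets) and 0.43 (adjusted p = 0.603). Untreated C57BL/6J lungs exceeded untreated C3H/HeJ lungs in Klrd1, 6.65 ± 0.45 against 5.64 ± 0.58 (adjusted p = 0.0199), in Cd3d, 6.50 ± 0.46 against 5.69 ± 0.23 (adjusted p = 0.0211), and in Gzmb, 5.71 ± 0.50 against 4.88 ± 0.12 (adjusted p = 0.0488). These were the 3 members called, where 10.9% of genes were. These calls depended on single arrays. Leaving out 1 untreated array of either strain ended the Cd3d call for A/J minus C3H/HeJ in 5 cases (0.73 to 0.88, every array but untreated C3H/HeJ 3) and for C57BL/6J minus C3H/HeJ in 4 (0.61 to 0.78, arrays 1 and 2 of each). It ended the Klrd1 call without untreated C57BL/6J array 1 or 2 or untreated C3H/HeJ array 1 (0.68 to 0.91), and the Gzmb call for A/J minus C3H/HeJ without untreated A/J array 1 (1.09). The Gzmb call between C57BL/6J and C3H/HeJ was lost in 13 of 18 alternatives, 5 of which left out 1 array (0.54 to 0.96, every array but untreated C57BL/6J 3). Between untreated A/J and C57BL/6J lungs 0 members were called by limma, where 10.4% of genes were, and 1 had an unadjusted p under 0.05.

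Across the 18 arrays the members did not form a single pattern. Gzma and Prf1 correlated at r = 0.77, and at 0.38 once group means were removed. Cd3d and Cd3g correlated at 0.65, and at 0.66 within groups, while Cd3d and Klrd1 correlated at 0.80, and at 0.31 within groups. Cd3e correlated with Gzma at -0.37, and Gzma with Gzmb at -0.28. These coefficients describe arrays that share groups, strains and scaling, and no p is attached to them.

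The tested genes outside the member list that were most like the mean of the 3 Cd3 chains over the 18 arrays were Cfap298 (r = 0.86), Kif21b (0.85), Rhoh (0.83), Mak (0.83) and Cyfip2 (0.83). Those most like the mean of Gzma and Prf1 were Slc16a9 (0.94), Alcam (0.92), Synm (0.91), Pde3a (0.91) and Tspan13 (0.91). None of these 10 genes is on the T cell or NK cell lists used here.

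A wider list of 42 T cell genes, none of them a member, had 26 tested genes. In A/J 3 of these rose and 3 fell, where 15.1% and 8.91% of all genes did, with a median difference of -0.14 against 0.09 over all genes. In C57BL/6J 4 rose and 1 fell, where 3.01% and 2.36% of all genes did, with a median of 0.34 against -0.01. In C3H/HeJ 5 rose and 1 fell, where 12.9% and 10.6% of all genes did, with a median of 0.37 against 0.01. Without the 3 arrays high in Krt4, 0 of them were called in C57BL/6J, where 1 untreated array then remained.

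Il7r, the receptor for the lymphocyte survival factor interleukin 7, rose in all 3 strains, by 1.19 ± 0.16 in A/J (adjusted p = 8.73e-05), 1.16 in C57BL/6J (adjusted p = 0.000915) and 0.90 in C3H/HeJ (adjusted p = 0.000817). It averaged 7.89 ± 0.18 in irradiated and 6.71 ± 0.12 in untreated A/J lungs (SD, n = 3 each). Ctla4, an inhibitory receptor of activated and regulatory T cells, rose by 0.97 in A/J (adjusted p = 0.0377) and 1.18 in C3H/HeJ (adjusted p = 0.0145). The A/J call was lost without irradiated array 1 or 3 or untreated array 1 or 2, at 0.66 to 1.03, and the C3H/HeJ call without irradiated or untreated array 1, at 1.05 and 0.83. Among genes close to the receptor, Cd2, an adhesion and co-stimulatory molecule, fell by 0.85 ± 0.19 in A/J (adjusted p = 0.00462), with 6.23 ± 0.06 in irradiated and 7.08 ± 0.04 in untreated lungs, a call that unscaled arrays did not give (-0.42, adjusted p = 0.333). Zap70, the kinase that binds phosphorylated CD3 and zeta chains, fell by 0.84 ± 0.29 in A/J (adjusted p = 0.0473). Its call was lost when any A/J array other than irradiated array 3 was left out, at -0.90 to -0.73, and without scaling, at -0.43.

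Gata3, a transcription factor of T helper and innate lymphoid cells that other lung cells also express, fell by 1.24 in C57BL/6J (adjusted p = 0.0191) and 0.89 in C3H/HeJ (adjusted p = 0.0295). These calls were lost without irradiated C57BL/6J array 2 or 3 or untreated C57BL/6J array 1 or 3, at -1.30 to -1.08, and without irradiated or untreated C3H/HeJ array 1 or 2, at -0.89 to -0.75. Unscaled arrays gave -0.52 for Gata3 in C3H/HeJ (adjusted p = 0.212). Ptpn22, a phosphatase that restrains receptor signalling, rose by 1.16 in C57BL/6J (adjusted p = 0.00671), as did Rasgrp1, an activator of Ras downstream of the receptor, by 1.05 (adjusted p = 0.00442). Without the 3 arrays high in Krt4 the C57BL/6J differences were 0.61 for Ptpn22 (adjusted p = 0.492), 1.09 for Rasgrp1 (adjusted p = 0.163) and 0.86 for Il7r (adjusted p = 0.154). Ccr7, the homing receptor of naive T cells and migrating dendritic cells, rose by 0.81 in C3H/HeJ (adjusted p = 0.0414), and fell by 0.79 in A/J (adjusted p = 0.0458), with overlap. The C3H/HeJ call was lost when any C3H/HeJ array other than irradiated array 3 was left out, at 0.72 to 0.85. The A/J difference of Ccr7 was not refitted under the alternatives.

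Of 45 NK cell and cytotoxic genes, 20 were tested. In A/J 0 rose and 5 fell, where 15.1% of all genes rose and 8.91% fell. In C57BL/6J 1 rose and 0 fell, where 3.01% and 2.36% of all genes did, and in C3H/HeJ 8 rose and 1 fell, where 12.9% and 10.6% did. The list had median differences of 0.01, 0.23 and 0.23 against 0.09, -0.01 and 0.01 over all genes. The list holds genes that other leukocytes also express, such as Tyrobp, Srgn and Itgae. The count that fell in A/J was 2 without scaling between arrays.

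Ncr1, the activating receptor NKp46 that is largely restricted to NK cells and related innate lymphoid cells, was low in the same lungs as Gzma. It read 5.29, 4.90 and 4.79 in irradiated A/J lungs, against 6.13, 6.15 and 6.15 in untreated A/J lungs. In C3H/HeJ it read 5.44, 5.50 and 4.84 in irradiated lungs, against 5.95, 6.12 and 5.70 in untreated lungs. In C57BL/6J it read 3.72, 4.33 and 4.24 in irradiated lungs, against 4.48, 4.93 and 4.37 in untreated lungs. The irradiated arrays were below the untreated ones without overlap in each strain. In C57BL/6J every Ncr1 value was below the overall median signal of 4.98, so the separation there is between dim values. Ncr1 fell by 1.15 ± 0.21 in A/J (adjusted p = 0.00094) and by 0.67 ± 0.21 in C3H/HeJ (adjusted p = 0.0287), and the difference of -0.50 in C57BL/6J was not called (adjusted p = 0.189). The C3H/HeJ difference was not refitted under the alternatives, and the lowest irradiated value there, 4.84, came from array 3, which lay between strains. The mean over strains was -0.77 ± 0.12 (adjusted p = 0.000127).

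The other A/J genes of that list that fell were Tbx21, which encodes the NK and T helper 1 factor T-bet, by 1.34 ± 0.23 (adjusted p = 0.000599), the chemokine Ccl5 by 1.29 ± 0.36 (adjusted p = 0.0172), the integrin Itga2, known as the NK marker CD49b, by 0.87 ± 0.21 (adjusted p = 0.00634; -0.71 and 0.112 without scaling), and Klrg1, a receptor of mature effector cells, by 0.56 (adjusted p = 0.0474). The Klrg1 difference was not refitted under the alternatives. The Ccl5 call was lost without scaling, at -0.82 (adjusted p = 0.0714). It was also lost without untreated A/J array 1 or irradiated A/J array 1 or 2, at -1.15 to -1.02. In C3H/HeJ the genes that rose were led by Itgae, the integrin CD103 of tissue-resident T cells and some dendritic cells, by 1.88 ± 0.23 (adjusted p = 4.27e-05). It averaged 7.64 ± 0.29 in irradiated and 5.76 ± 0.07 in untreated C3H/HeJ lungs. The cytokine receptor subunits Il2rb and Il18rap rose by 1.16 (adjusted p = 0.0412) and 1.02 (adjusted p = 0.00143), and the NK receptor Klrb1b by 1.16 (adjusted p = 0.00385). The Il2rb call was lost when any C3H/HeJ array other than untreated array 2 was left out, at 0.88 to 1.22. In C57BL/6J the called gene was the granzyme Gzmk, which rose by 1.38 ± 0.33 (adjusted p = 0.0235). It was not called without irradiated array 1 or untreated array 1 or 3 of that strain, at 1.03 to 1.33, and was 0.74 (adjusted p = 0.633) without the 3 arrays high in Krt4.

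A list of 19 recruitment and survival genes had 12 tested. In A/J 0 rose and 1 fell, against 15.1% and 8.91% of all genes, and in C57BL/6J 1 rose and 1 fell, against 3.01% and 2.36%. In C3H/HeJ 4 rose and 2 fell, against 12.9% and 10.6%, and the count that fell in A/J was near the share over all genes. Cxcl9, a ligand of the T cell and NK cell chemokine receptor CXCR3, averaged 5.71 ± 0.50 in irradiated and 4.80 ± 0.20 in untreated A/J lungs, 5.88 ± 0.36 and 3.69 ± 1.09 in C57BL/6J lungs, and 6.12 ± 0.13 and 4.12 ± 0.38 in C3H/HeJ lungs (SD, n = 3 each). It rose by 2.18 in C57BL/6J (adjusted p = 0.00553) and 1.99 in C3H/HeJ (adjusted p = 0.00201), and the A/J difference of 0.91 was not called (adjusted p = 0.108). Without the 3 arrays high in Krt4 the C57BL/6J difference of Cxcl9 was 0.93 (adjusted p = 0.284). Cxcl10, another CXCR3 ligand, rose by 1.81 in C3H/HeJ (adjusted p = 0.00444). Il12a, a subunit of the NK-activating cytokine interleukin 12, fell by 1.15 in A/J (adjusted p = 0.00411) and 1.11 in C3H/HeJ (adjusted p = 0.00506; -0.71 and 0.099 without scaling). Cx3cl1, a ligand for the NK and monocyte receptor Cx3cr1, fell by 1.01 in C3H/HeJ (adjusted p = 5.26e-05) and by 0.62 in C57BL/6J (adjusted p = 0.0112), where the call was lost without irradiated array 1, at -0.58 (adjusted p = 0.056), and without the 3 arrays high in Krt4, at -0.68 (adjusted p = 0.232). Its receptor Cx3cr1 rose by 1.03 in C3H/HeJ (adjusted p = 0.0161), a call lost without irradiated or untreated C3H/HeJ array 1, at 0.97 and 0.94.

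Averaged over the strains, 6 T cell genes rose and 2 fell, 7 NK cell and cytotoxic genes rose and 4 fell, and 6 recruitment genes rose and 2 fell, where 20.9% of all genes rose and 15.3% fell, with medians of 0.23, 0.15 and 0.25 against 0.02 over all genes. These averages were led in size by Il7r (1.08 ± 0.09, adjusted p = 4.15e-07), Itgae (0.95 ± 0.13, adjusted p = 4.94e-05) and Cxcl9 (1.69 ± 0.23, adjusted p = 3.6e-05). Unscaled arrays, where the median over all genes was 0.40, gave 13 T cell genes that rose and 1 that fell.

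**Figure D3:**
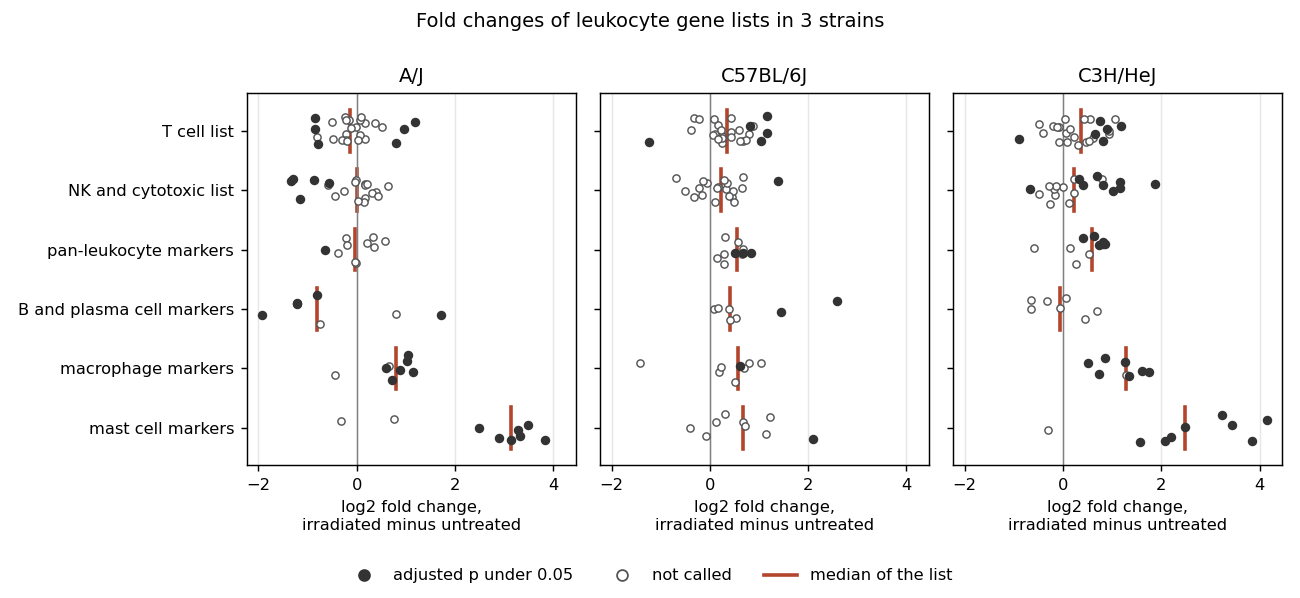
Points are log2 differences, irradiated minus untreated, of the tested genes of 6 lists, with 1 panel per strain. Filled points have an adjusted p under 0.05 and the red bar is the list's median. In A/J the median of the T cell list was -0.14 and that of the B and plasma cell markers -0.80, while the mast cell markers were at 3.13.

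Markers of other leukocytes in the same lungs bear on how the members read. Of 10 pan-leukocyte genes, 0 rose and 1 fell in A/J, 3 rose in C57BL/6J and 6 rose in C3H/HeJ. Of all genes, 15.1% rose and 8.91% fell in A/J, 3.01% rose in C57BL/6J and 12.9% rose in C3H/HeJ. The pan-leukocyte count that fell in A/J was near the share over all genes. The summed signal of the pan-leukocyte genes was 5420 to 7080 in irradiated and 6020 to 6210 in untreated A/J lungs. Ptprc, the leukocyte antigen CD45, differed by -0.22 in A/J (adjusted p = 0.268), 0.29 in C57BL/6J (adjusted p = 0.246) and 0.15 in C3H/HeJ (adjusted p = 0.475), with overlap in each strain. The summed signal of the 9 T and NK members was 304 to 422 in irradiated and 627 to 684 in untreated A/J lungs, without overlap. It was 612 to 656 in irradiated and 525 to 1000 in untreated C57BL/6J lungs, and 344 to 490 and 463 to 646 in C3H/HeJ lungs, with overlap in both. A linear sum weighs bright genes most, and Gzma was the brightest member in untreated A/J lungs, at 7.54. In A/J 4 members were called lower, while Cd3e, Cd3g and Gzmb differed by -0.05, 0.03 and -0.12.

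Of 7 tested B and plasma cell genes, 1 rose and 4 fell in A/J (median -0.80), 2 rose and 0 fell in C57BL/6J (median 0.41), and limma called 0 in C3H/HeJ (median -0.07). Of all genes, 15.1% rose and 8.91% fell in A/J, 3.01% and 2.36% in C57BL/6J, and 12.9% and 10.6% in C3H/HeJ. The same shares stand beside the macrophage and neutrophil counts below, and the B and plasma cell count that rose in A/J was near its share. The B cell genes Ms4a1, Cd79a and Cd79b fell in A/J by 1.93, 1.21 and 1.22 (adjusted p = 0.000457, 0.00404 and 0.00389), and the plasma cell gene Jchain rose by 1.72 (adjusted p = 0.00589). Of 8 macrophage and monocyte genes, 6 rose in A/J, 1 rose in C57BL/6J and 7 rose in C3H/HeJ, with none lower by the test in these strains. Of 5 tested neutrophil genes, 0 rose and 2 fell in A/J (median -0.79), limma called 0 in C57BL/6J (median -0.18), and 2 rose in C3H/HeJ (median 0.78). The summed neutrophil signal was 705 to 2340 in irradiated and 2050 to 2520 in untreated A/J lungs. The part of these other leukocytes in the member values was not tested.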

How the data were processed

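Lung RNA of 18 samples was measured on 1-colour oligonucleotide arrays, and the labels gave each sample its group. Each probe set has 1 deposited intensity per array, a linear signal from MAS5, per the submitters' processing notes. Its version, scaling target and background settings are not given in the sources used here. Trimmed mean intensity ranged from 46.5 to 176 between arrays, so log2(signal + 7) was quantile normalized, where 7 is the 25th percentile of the deposited signals, rounded. The 64 control probe sets were left out of the tests.

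A probe set was kept when it exceeded the overall median of 4.98 in at least 3 of 18 arrays. This left 25726 probe sets, and each gene was represented by the kept probe set with the highest mean that names it alone. Symbols came from the platform annotation, updated by gene identifier. Of its 35890 rows, 34958 name 1 gene and 932 several, and 9211 probe sets have no row and stay unnamed here.

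Comparisons were fitted with limma 3.58.1 in R 4.3.3 as 6 group means with 12 residual degrees of freedom, two-sided, with Benjamini-Hochberg adjustment over 12405 genes and a threshold of 0.05. The script was tested on simulated data. All adjusted p-values are limma's. Fold changes on the log2(signal + 7) scale understate the change of dim genes, and the number of arrays limits precision.

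The members and the gene lists were chosen with earlier results of these data known. Text names all members, up to 4 called genes of each list and effect with the largest differences, the 5 genes most like the Cd3 mean and the 5 most like the Gzma and Prf1 mean, and a fixed set of check genes. The check genes Gzmc and Cd4 were too dim to be tested. Klrg1, Ccr7 in A/J, Cx3cl1 in C3H/HeJ and Ms4a1, Cd79a, Cd79b and Jchain, as well as Tyrobp and Srgn, fall outside this rule and were chosen after their values were seen. Alternatives changed scaling, offset, filter, samples, weights and replicate block. Differences given for the genes outside the rule were not refitted under them.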

Additional observations from a re-analysis of the deposited data

Results flagged for a closer look

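Responses are compared here between strains, which cannot be told apart from time after exposure. Some T cell and NK cell genes differed between strains in their response by limma's test of the difference itself. Of the members, these were Cd3d, whose A/J effect minus C57BL/6J effect was -1.28 (adjusted p = 0.0212), and Prf1, at -1.32 (adjusted p = 0.0226). The other kept Prf1 probe set gave -0.06 (adjusted p = 0.95 over 25726 probe sets). Without scaling between arrays both calls were lost, at -0.96 for Cd3d (adjusted p = 0.425) and -1.24 for Prf1 (adjusted p = 0.244). Without the 3 arrays high in Krt4, which leaves 1 untreated C57BL/6J array, the differences were -0.75 and -1.49.

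From the wider lists, the A/J effect minus the C57BL/6J effect was -1.67 for Ccr7 (adjusted p = 0.0204), -1.20 for Tbx21 (adjusted p = 0.0385), -1.02 for Cd2 (adjusted p = 0.04) and -1.02 for Rasgrp1 (adjusted p = 0.0312). For Ccr7 the levels were 5.64 ± 0.70 in irradiated and 6.43 ± 0.21 in untreated A/J lungs, against 6.59 ± 0.24 in irradiated and 5.71 ± 0.39 in untreated C57BL/6J lungs (SD, n = 3 each).

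Itgae had an A/J effect minus C3H/HeJ effect of -1.58 (adjusted p = 0.0315). Its level was 5.82 ± 0.31 in irradiated and 5.52 ± 0.36 in untreated A/J lungs, and 7.64 ± 0.29 in irradiated and 5.76 ± 0.07 in untreated C3H/HeJ lungs. These list genes' strain differences were not refitted under the alternatives.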

How the results depend on the processing

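Of the tests of members and list genes under the alternatives, 2558 had the same outcome as in the main fit. These include tests called in neither fit. A call was lost in 147 tests, gained in 24 and reversed in 0. Without scaling between arrays all genes had a median of 0.56 (A/J), 0.06 (C57BL/6J) or 0.62 (C3H/HeJ), and the members -0.30 (A/J), 0.24 (C57BL/6J) or 0.42 (C3H/HeJ). That setting called 2 members in A/J, 2 in C3H/HeJ (both higher), 0 for A/J minus C57BL/6J, 1 for untreated C57BL/6J minus C3H/HeJ, and 225 genes in C57BL/6J. Centring on medians called 4669 genes in A/J (4133 higher and 536 lower, against 1874 and 1105 in the quantile fit), 342 in C57BL/6J, and 3 members in C3H/HeJ. With an offset of 32, 2 members were called in C3H/HeJ, and with the filter in 9 of 18 arrays, 3. No filter gave 409 genes in C57BL/6J and 1 member for untreated A/J minus C3H/HeJ. Fitting only the groups compared gave 79 genes in C57BL/6J, 1 member for untreated A/J minus C57BL/6J and 0 for untreated C57BL/6J minus C3H/HeJ. Array weights gave 2 members for A/J minus C3H/HeJ. Without the 3 arrays high in Krt4, 32 genes in C57BL/6J, 2 members in C3H/HeJ and 0 for A/J minus C57BL/6J were called; leaving out irradiated C3H/HeJ array 3 too, a choice made after seeing the data, gave 20 genes and 0 members in those comparisons, and 1 member was called in C3H/HeJ. The C57BL/6J fits without those arrays hold 1 untreated array, assumed to vary like the other groups. The causes were not tested.

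Leaving out 1 array at a time, members called were 3 to 4 in A/J, 0 to 0 in C57BL/6J, 0 to 2 in C3H/HeJ and 2 to 4 for the mean. They were 1 to 2 for A/J minus C57BL/6J, 0 to 0 for A/J minus C3H/HeJ and 0 to 1 for C57BL/6J minus C3H/HeJ. For untreated lungs they were 0 to 0 (A/J minus C57BL/6J), 0 to 2 (A/J minus C3H/HeJ) and 0 to 3 (C57BL/6J minus C3H/HeJ). Genes called ranged from 2092 to 2704 in A/J, 219 to 730 in C57BL/6J, 2145 to 2401 in C3H/HeJ and 4087 to 4536 for the mean.

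Samples that share a replicate number did not deviate together (r from -0.08 to 0.10), so the numbers do not pair them. With the replicate block, 4 members among 2831 genes were called for A/J, 0 among 582 for C57BL/6J and 1 among 2747 for C3H/HeJ. Under the block the Ctla4 difference in A/J (0.97, adjusted p = 0.0526) and the Gzmb difference between untreated C57BL/6J and C3H/HeJ (0.83, adjusted p = 0.0639) were not called. Ctla4 in A/J was also not called with array weights, an offset of 1, no filter or only the groups compared.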
